A study of Mus musculus and Homo sapiens with 17 samples.

Results

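Squamous cell carcinoma (SCC) was compared with papilloma, the benign lesion that precedes it, within mice labelled Dusp1 knockout (KO). The members were the 5 libraries that carry this genotype label, 3 of KO papilloma and 2 of KO SCC, of 17 libraries in the series and 11 from mouse, and every named gene of those libraries was considered. All 5 came from skin of C57BL/6-129 mice treated with DMBA and TPA, so the genotype label, strain and treatment are shared. Among the traits that the labels give, only the lesion differs. The other mouse libraries, 3 of wild-type (WT) skin and 3 of WT SCC from animals with the same strain label and the same 2 agents, entered the fit to share an estimate of the spread and are otherwise given as background levels. No papilloma of the WT genotype was analysed here, so a difference between stages cannot be split into one that needs the KO label and one that does not.

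In this staged protocol DMBA, a mutagen, starts clones of altered keratinocytes, and repeated TPA, a phorbol ester that activates protein kinase C, drives them to grow out as papillomas, some of which become invasive carcinomas. In normal epidermis basal keratinocytes leave the cell cycle, switch from the basal keratins to Krt1 and Krt10, and then load the proteins of the cornified envelope. Papillomas keep much of that order, and loss of Krt1 and Krt10 has long been used as a marker of progression in mouse skin. DUSP1 is a phosphatase that removes phosphate from the MAP kinases p38, JNK and ERK in the nucleus, and its gene is itself induced by MAP kinase signalling.

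RNA was taken from whole frozen sections with no sorting, while the cell type given in the labels is keratinocytes, so fewer cells of a type and less RNA per cell cannot be told apart in any value below. The labels give neither the age or sex of the animals nor whether each library came from an animal of its own, nor the kind of allele behind the KO label. Genes of the Y chromosome summed to 4779 counts in KO SCC replicate 2 and to 0 in the other 4 libraries. Presence of Y counts was thus not balanced between the stages, and the 2 carcinomas came from more than 1 animal. For the papillomas this is not known, and a p-value here sets a difference against the spread among libraries, which may be technical. The 5 libraries held 41.1 to 46.3 M counts (M, units of 1e6), a depth at which 3 counts, taken as the limit for a gene at 0, correspond to 0.073 to 0.0866 counts per 1e6 counts (CPM). Across genes, Pearson's r of log2 CPM was 0.949 to 0.963 between papillomas, 0.972 between the 2 carcinomas and 0.953 to 0.969 between a papilloma and a carcinoma. The stages were thus not set apart by overall similarity. On the first 2 principal components of the 5 libraries, which hold 34.4% and 28.8% of the variance, the stages overlapped on the first, and both carcinomas lay below all 3 papillomas on the second.

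Dusp1 (ENSMUSG00000024190.7, chromosome 17) was read in every library labelled KO. Its level was 129, 109.3 and 109.6 CPM in the papillomas and 139 and 175 CPM in the carcinomas, a log2 difference of 0.44 ± 0.25 (SE) with an adjusted p of 0.427 by edgeR's quasi-likelihood test. WT skin held 85.2 ± 29.4 CPM (SD, n = 3) and WT SCC 74.5 ± 8.63 CPM (SD, n = 3). The libraries labelled KO therefore did not hold less Dusp1 RNA than the WT libraries, and since counts per gene do not show which part of a gene was read, KO is used here as the label and not as a measured loss. The basal keratins that define keratinocytes were abundant at both stages. Krt14 was at 47680, 27640 and 30820 CPM in the papillomas and 40070 and 37240 CPM in the carcinomas, and Krt5 at 9209, 7078 and 7621 against 7646 and 6659 CPM. The ranges of the stages overlapped for both keratins.

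Of 22371 genes tested, 64 (0.286%) passed an adjusted p of 0.05, with 11 (0.0492%) higher and 53 (0.237%) lower in KO SCC than in KO papilloma. Of these, 57 differed at least 2-fold, and their adjusted p lay between 0.0162 and 0.0496. The genes that fell included the suprabasal keratins Krt1 and Krt10, the barrier protein gene Flg, and enzymes of the upper epidermis, and those that rose included the tight junction gene Cldn8, Ly6c1, Emp1 and Anxa1. All 64 had values that did not overlap between the stages, a property shared by 31.6% of all tested genes (16.1% higher, 15.5% lower). The median log2 difference of all tested genes was -0.05.

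The number of calls was small and rested on single libraries. It was 0 without KO SCC replicate 1 (1288 genes at an unadjusted p under 0.05) and 0 without KO papilloma replicate 3 (2560 genes), both by edgeR. It was 7 without KO SCC replicate 2, 12 without KO papilloma replicate 1 and 84 without KO papilloma replicate 2. Each of the called genes named in the text lost its call in at least 2 of these fits, whereas none changed direction in any of them. DESeq2 called 941 genes (4.21%), 417 higher (1.86%) and 524 lower (2.34%), among them all 64.

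**Figure D1:**
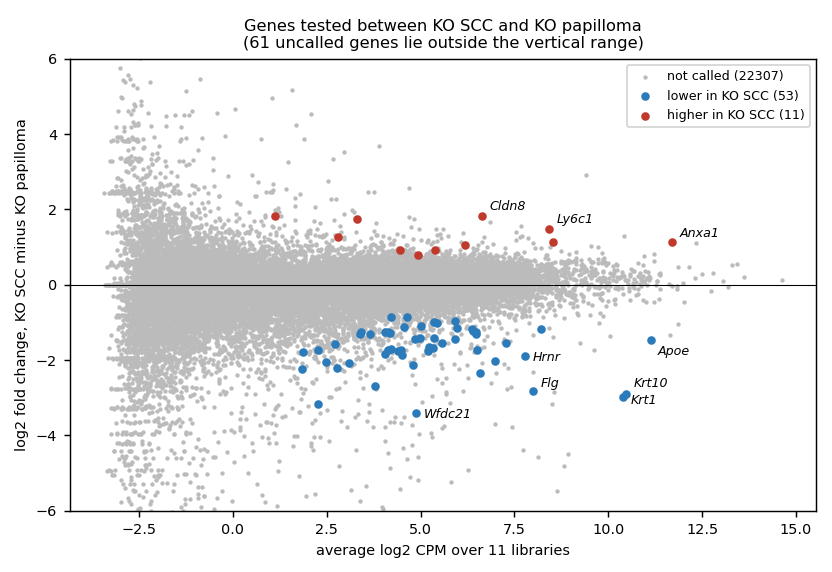
Log2 fold change between KO SCC and KO papilloma against average log2 CPM over the 11 mouse libraries, 1 point per tested gene. Blue points mark the 53 genes that passed the test as lower and red points the 11 that passed as higher. Most called genes lie at middle to high expression, with Krt1, Krt10 and Flg far below 0.

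Among called genes, the switch keratins of the suprabasal layers had the largest drops in mean CPM. Krt1, the type II keratin of early differentiation (chromosome 15, 101845426 to 101850794, minus strand, GRCm38), was at 3737, 2232 and 3691 CPM in the papillomas and at 359.5 and 462 CPM in the carcinomas. Both carcinomas lay far below the lowest papilloma, and the fitted level was 7.84-fold lower (log2 -2.97 ± 0.43, adjusted p 0.03). Its partner Krt10 (chromosome 11, 99385254 to 99389364, minus strand) was at 2468, 2110 and 2720 CPM in the papillomas and 226 and 422 CPM in the carcinomas, 7.51-fold lower (log2 -2.91 ± 0.36, adjusted p 0.0196). Krt1 and Krt10 pair into 1 filament, and both showed the same split, with KO SCC replicate 1 the lowest library for each. Of the 14 genes listed for early differentiation, all tested, these 2 fell, and the other 12 did not pass, with a list median of -0.39. At an unadjusted p under 0.05, 6 of the 14 were lower and 1 higher, where 7.87% and 7.75% of tested genes were. The carcinomas lay below all papillomas in 6 and above them in 1, where 15.5% and 16.1% of tested genes did. Calm4, a calcium-binding protein of differentiating keratinocytes, was at 5886, 7100 and 6934 against 3116 and 3307 CPM (adjusted p 0.146), and Fabp5, the epidermal fatty acid binding protein and named outside the rule, at 12780, 13000 and 11410 against 18500 and 17290 CPM (adjusted p 0.248).

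Genes of the granular and cornified layers were next. Flg encodes profilaggrin, which packs keratin filaments and is broken down to the free amino acids that hold water in the outer layer. It was at 606, 497 and 629.8 CPM in the papillomas and at 80.8 and 83.4 CPM in the carcinomas. The carcinomas were nearly equal and 7.04-fold lower (log2 -2.82 ± 0.30). The adjusted p by edgeR, 0.0162, was the smallest of all genes and was shared with Calm5, Xkrx and Sec14l2. Hrnr, which encodes the related repeat protein hornerin, fell from 611, 423 and 292 CPM to 125 and 114 CPM (log2 -1.89 ± 0.32, adjusted p 0.0455). Lce1c, a late cornified envelope gene, fell from 150.3, 146.5 and 135 CPM to 47.1 and 39.7 CPM (log2 -1.73 ± 0.30, adjusted p 0.0496). Its papilloma values were tight and both carcinomas were about equally low, but late cornified envelope genes have near-identical copies, and how reads shared between them were counted is not stated in the labels.

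Of 28 listed genes of the cornified envelope, all tested, these 3 fell and none rose, 10 were lower at an unadjusted p under 0.05 where 7.87% of all tested genes were, and the list median was -0.41. Several just missed the threshold. Lce1b had an adjusted p of 0.0501 (154, 157 and 132 against 51.1 and 41.5 CPM). Casp14, a protease that takes part in the breakdown of filaggrin, had one of 0.0515 (554, 187 and 278 against 54.3 and 91.5 CPM). Flg2 was at 64.8, 47.2 and 55.5 against 10.6 and 11.4 CPM (adjusted p 0.0677). The list was not uniform, since 11 of its members had a positive log2 difference. Lor, the major protein of the mouse envelope, overlapped between stages at 580.4, 766 and 1278 against 695 and 477 CPM, and was named for its role outside the naming rule. In DESeq2 9 of the 28 passed as lower.

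The upstream sequences of 4 genes that fell are shown because all 4 genes belong to differentiating epidermis, and because AP-1, the factor family that TPA activates, binds a short motif known from many epidermal promoters. Each is the 250 bases before the annotated start, from RefSeq on GRCm38.p6, 5′ to 3′ on the gene's strand. Capitals mark each match to the motif TGANTCA, where N is any base. This is wider than the usual AP-1 site, which has C or G at that position. The motif is its own reverse complement and was therefore searched once for both strands.
Flg, chr3:93273296-93273545, plus strand: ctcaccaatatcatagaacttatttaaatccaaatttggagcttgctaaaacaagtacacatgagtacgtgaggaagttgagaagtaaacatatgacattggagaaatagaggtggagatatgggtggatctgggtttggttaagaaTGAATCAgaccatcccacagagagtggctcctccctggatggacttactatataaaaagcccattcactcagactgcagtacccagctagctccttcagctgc
Hal, chr10:93488518-93488767, plus strand: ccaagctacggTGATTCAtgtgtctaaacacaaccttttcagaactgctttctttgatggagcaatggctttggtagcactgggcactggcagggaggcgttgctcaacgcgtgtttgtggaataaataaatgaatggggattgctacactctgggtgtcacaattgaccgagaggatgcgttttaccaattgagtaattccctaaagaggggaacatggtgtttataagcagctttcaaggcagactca
Hrnr, chr3:93319499-93319748, plus strand: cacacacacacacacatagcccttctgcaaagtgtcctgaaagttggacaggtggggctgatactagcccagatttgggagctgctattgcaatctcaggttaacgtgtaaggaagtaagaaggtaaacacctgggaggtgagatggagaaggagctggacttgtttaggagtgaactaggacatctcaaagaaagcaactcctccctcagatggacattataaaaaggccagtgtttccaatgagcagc
Krt10, chr11:99389365-99389614, minus strand: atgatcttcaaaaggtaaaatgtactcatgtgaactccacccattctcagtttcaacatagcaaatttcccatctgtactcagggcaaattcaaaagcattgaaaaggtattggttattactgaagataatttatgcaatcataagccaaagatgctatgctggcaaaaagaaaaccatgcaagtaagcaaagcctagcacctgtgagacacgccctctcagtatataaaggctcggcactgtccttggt
The motif began 103 bases before the start in Flg and 239 bases before it in Hal. Its middle base was A in Flg and T in Hal, so neither match has the usual AP-1 centre. These letters were not found in the windows of Hrnr and Krt10.

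RefSeq windows were matched by symbol for 38 of the genes that fell (49 windows) and 6 of those that rose (9 windows). The motif was in 5 of the 49 windows (10.2%) and in 1 of the 9 (11.1%), that of Emp1, which held it 145 and 25 bases before the start. In Emp1 the middle base was G, as in the usual AP-1 site, at 145 bases and T at 25 bases. Beside Flg and Hal, the fallen genes with a match were Agpat4, Slc37a2 and Xkrx. Their middle bases were C, G and T, so Agpat4 and Slc37a2 had the usual centre. Over all 32851 windows of this length the share was 6.75%, and over those of tested genes 5.52%. With so few windows this describes the letters only.

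Other genes that fell included enzymes and calcium-binding proteins known from the upper epidermis. Hal, which turns the histidine released from filaggrin into urocanic acid, was at 208, 103 and 162 CPM in the papillomas and 29.1 and 32.7 CPM in the carcinomas (log2 -2.35 ± 0.34, adjusted p 0.03). Calm5, a calmodulin-like protein of the epidermis, was at 12.99, 9.49 and 17.6 against 1.91 and 2.21 CPM (log2 -2.70 ± 0.30, adjusted p 0.0162). Pla2g2f, a secreted phospholipase of the suprabasal epidermis, was at 267, 120.1 and 196 against 42.7 and 52.6 CPM (log2 -2.03 ± 0.36, adjusted p 0.0496). In all 3 genes the carcinomas were close to each other and clear of the papillomas.

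The lipoxygenase gene Alox8, known to be induced in mouse skin by phorbol ester, was at 16.6, 20.3 and 17.8 against 3.9 and 4.69 CPM (log2 -2.08 ± 0.31, adjusted p 0.0306). Mboat2, a membrane-bound acyltransferase that remodels phospholipids, was at 36.4, 31.5 and 36.4 against 7.68 and 8.22 CPM (log2 -2.13 ± 0.28, adjusted p 0.0236). Wfdc21, which encodes a secreted protein with a whey acidic protein domain, had the largest fitted fall of the called genes at 14.9, 37.9 and 42.4 against 2.31 and 3.68 CPM (log2 -3.40 ± 0.54, adjusted p 0.0366). KO papilloma replicate 1 was the lowest papilloma for Wfdc21, and it still held more than either carcinoma. Gprin2 had the next largest of the called falls, at a low level of 3.56, 3.11 and 5.45 against 0.577 and 0.323 CPM (log2 -3.17 ± 0.43, adjusted p 0.0236). The rule also named Xpnpep2, an aminopeptidase, Hspa12a, a distant member of the Hsp70 family, Aif1l, an actin-binding protein, and Xkrx, with log2 differences of -2.20, -2.06, -1.86 and -1.84.

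The rule left out 29 of the 64 called genes, and the following of them were picked after their values were seen. Pou3f1 and Pou2f3, POU domain transcription factors of differentiating epidermis, were at 53.2, 35.5 and 54.1 against 13.4 and 14.9 CPM and at 23.8, 16.6 and 27.8 against 6.18 and 7.72 CPM (adjusted p 0.0196 and 0.0455). Kprp and Lce1k, which lie with Flg, Hrnr and Lce1c on chromosome 3, had log2 differences of -1.18 and -1.74. Apoe, the lipid carrier apolipoprotein E, was after Krt1 and Krt10 the most abundant of the fallen genes in the papillomas, at 1645, 1729 and 2642 against 624.5 and 822 CPM (adjusted p 0.0478).

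**Figure D2:**
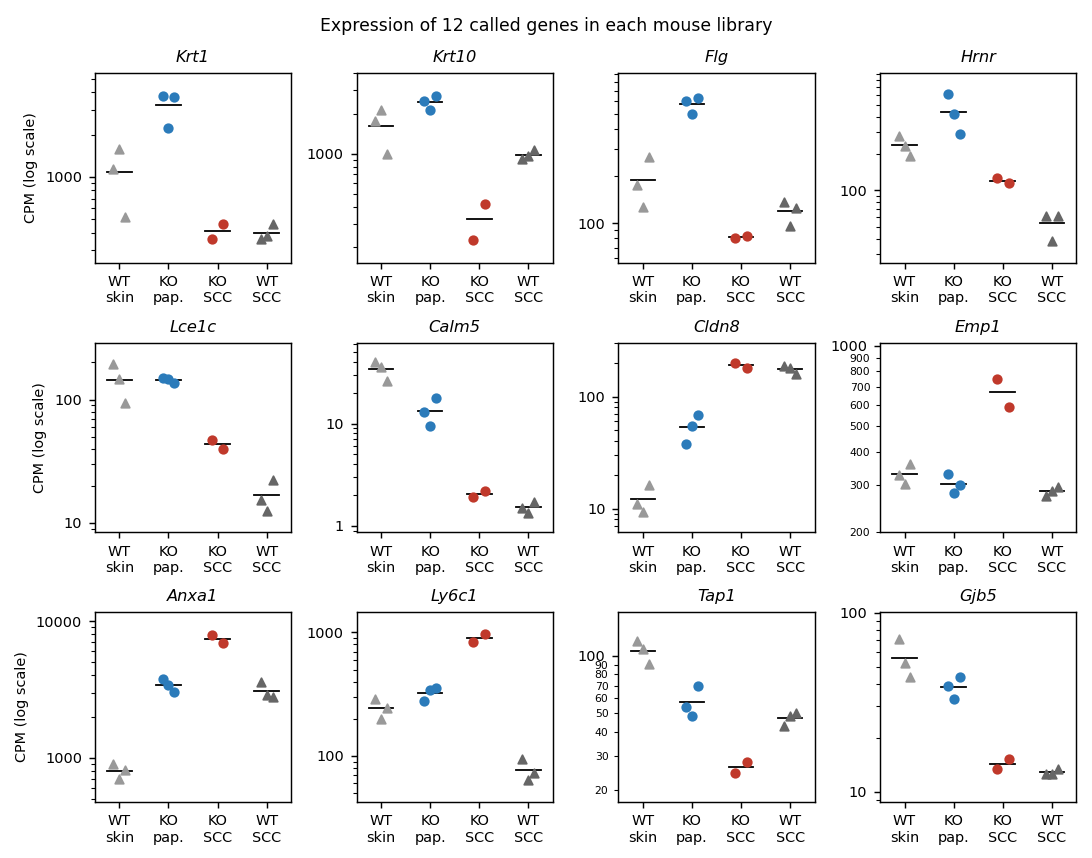
CPM on a log axis of 12 called genes in each of the 11 mouse libraries. Circles are the libraries of the comparison (blue KO papilloma, red KO SCC), triangles are WT skin and WT SCC for background, and bars are group means. The 2 carcinomas stand clear of the 3 papillomas in every panel, whereas the WT SCC libraries lie near KO SCC for Krt1 and Cldn8 but not for Emp1 and Ly6c1.

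Among basal genes and junctions a few members moved. Krt15, a keratin of basal cells in resting epidermis and of the hair follicle bulge, fell from 124, 149 and 147 CPM to 64.8 and 60.2 CPM (log2 -1.16 ± 0.17, adjusted p 0.0306), and was the 1 of 14 basal genes that passed. The 27 listed junction genes, all tested, had a median of -0.13. The epidermal connexin gene Gjb5 fell from 39.0, 33.0 and 43.5 CPM to 13.5 and 15.2 CPM (log2 -1.42 ± 0.21, adjusted p 0.03). The carcinomas were about equal and below every papilloma. The desmosomal cadherin Dsg3, typical of lower layers, was at 452, 352 and 354 against 792 and 749 CPM and did not pass (adjusted p 0.0732), nor did the tight junction gene Ocln at 21.9, 21.5 and 21.8 against 39.0 and 38.6 CPM (adjusted p 0.0769).

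Cldn8, a claudin of tight junctions (chromosome 16, 88560828 to 88563183, minus strand), showed the largest fitted rise of the 11 genes called higher. It was at 38.0, 54.9 and 68.0 CPM in the papillomas and 199.9 and 182 CPM in the carcinomas, 3.56-fold higher (log2 1.83 ± 0.25, adjusted p 0.0236). Emp1, an epithelial membrane protein, rose from 330.0, 280.3 and 300.2 CPM to 749.7 and 587 CPM (log2 1.14 ± 0.15, adjusted p 0.0236). Anxa1, a calcium-dependent phospholipid-binding annexin, rose from 3745, 3397 and 3016 CPM to 7902 and 6894 CPM (log2 1.13 ± 0.18, adjusted p 0.0366) and was the most abundant gene that changed. For all 3 genes both carcinomas lay above every papilloma.

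Ly6c1 encodes a surface protein best known from monocytes and endothelium, and was at 276, 343 and 352 CPM in the papillomas and 842 and 976 CPM in the carcinomas (log2 1.49 ± 0.21, adjusted p 0.0284). It has a near-identical neighbour, so its count is uncertain. Prss16, a serine protease known from the thymus, and Rapgef5, an exchange factor for Rap GTPases, had log2 differences of 1.27 ± 0.21 and 1.04 ± 0.17 (adjusted p 0.0402 and 0.0433). Uba6, a ubiquitin-activating enzyme, and Yaf2, a component of Polycomb complexes, had 0.93 ± 0.15 and 0.80 ± 0.12 (adjusted p 0.0366 and 0.0364). The predicted genes Gm14410 and Gm8991 rose by 1.74 and 0.92, and Adamtsl3, left out of the rule for its low level, by 1.81.

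Genes of the cell cycle were higher in the carcinomas by small amounts that did not pass for any single gene. Of 30 genes of mitosis and the spindle, all tested, none passed, yet all 30 had a positive log2 difference with a median of 0.60. The carcinomas lay above all papillomas in 27 of them, where 16.1% of tested genes did, and 14 were higher at an unadjusted p under 0.05, where 7.75% were. Ttk, a kinase of the spindle checkpoint, was at 20.9, 23.6 and 16.5 against 41.2 and 35.7 CPM (log2 0.92 ± 0.18, adjusted p 0.0658). Hmmr, a spindle-associated protein, was at 26.4, 31.1 and 23.3 against 57.2 and 49.6 CPM (adjusted p 0.159), and Bub1 at 22.8, 22.97 and 15.9 against 49.9 and 31.0 CPM (adjusted p 0.157). KO SCC replicate 1 was the highest library for each of the 3. Of 30 genes of DNA replication, none passed, 28 were positive with a median of 0.33, and 8 were higher at an unadjusted p under 0.05. Pola1, a subunit of the polymerase that starts new strands, led them at 22.8, 29.1 and 18.9 against 49.9 and 40.0 CPM (adjusted p 0.133). In DESeq2 7 of the mitosis genes and 3 of the replication genes passed as higher.

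Genes of antigen presentation lay lower. Tap1, the peptide transporter that feeds MHC class I, fell from 54.1, 48.6 and 69.8 CPM to 24.3 and 27.9 CPM (log2 -1.14 ± 0.18, adjusted p 0.0366), and was the 1 of 16 class I genes that passed. Of the 16, 15 had carcinomas below all papillomas, where 15.5% of tested genes did. At an unadjusted p under 0.05, 13 were lower, where 7.87% of tested genes were, and the median was -0.75. Psmb8, a subunit of the immunoproteasome, was at 25.6, 27.1 and 28.3 against 10.8 and 15.2 CPM (adjusted p 0.0515), Tapbp, which holds class I molecules at the transporter, at 63.3, 57.4 and 72.5 against 28.0 and 39.4 CPM (adjusted p 0.0706), and the class I heavy chain H2-K1 at 793, 719.8 and 795 against 424 and 489.5 CPM (adjusted p 0.129). MHC genes have near-identical copies that differ between strains, and these mice are of mixed strain, so counts of single heavy chains are uncertain. In DESeq2 8 of the 16 passed as lower.

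Of 10 class II genes, none passed, and all were negative with a median of -0.66. At an unadjusted p under 0.05, 7 were lower, where 7.87% of tested genes were. Cd74, the invariant chain, was at 259, 352 and 366 against 147 and 225 CPM (adjusted p 0.227), and KO papilloma replicate 1 was the lowest papilloma. Of 30 interferon response genes, all tested, 29 were negative with a median of -0.81. By unadjusted p under 0.05, 7 were lower, against the same 7.87% of tested genes. The guanylate-binding protein gene Gbp2, induced by interferon, was at 12.01, 16.2 and 8.47 against 3.49 and 7.03 CPM (adjusted p 0.174).

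**Figure D3:**
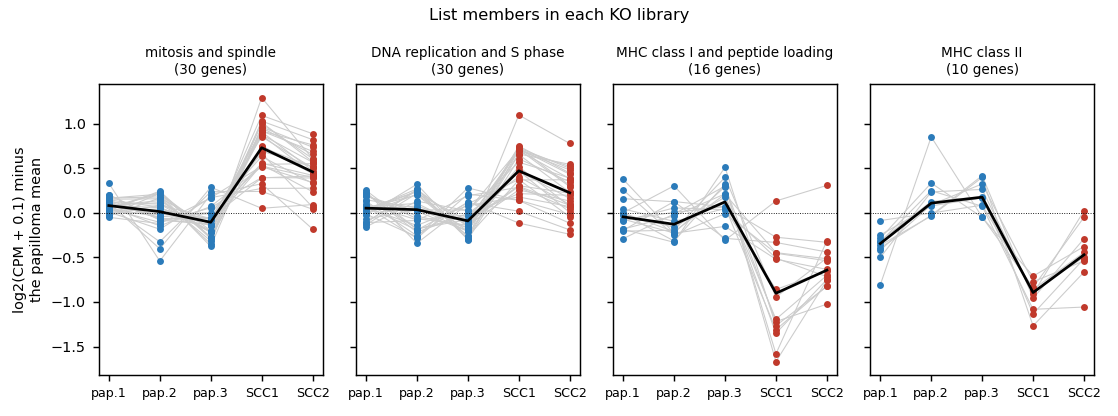
Log2(CPM + 0.1) of each list member minus its mean over the 3 papillomas, by KO library, with grey lines joining the values of a gene and the black line joining the medians. Medians in KO SCC replicates 1 and 2 were 0.73 and 0.46 for mitosis, 0.47 and 0.23 for replication, -0.90 and -0.64 for MHC class I and -0.89 and -0.47 for class II, where KO papilloma replicate 1 was at -0.34.

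Markers of other cells of the section moved with these genes in part, and their part in the results was not tested. Of 20 T and NK cell markers, all tested, 1 fell, and 19 were negative with a median of -0.91. At an unadjusted p under 0.05, 5 were lower, where 7.87% of tested genes were. The granzyme gene Gzmc fell from 1.81, 1.87 and 1.78 CPM to 0.548 and 0.497 CPM (log2 -1.80 ± 0.28, adjusted p 0.0348), and Cd3g was at 4.36, 4.53 and 3.80 against 1.85 and 2.09 CPM (adjusted p 0.2). The summed level of the list was 99.8 to 137 CPM in the papillomas and 132 to 149 CPM in the carcinomas, since Trbc2, a receptor constant region picked here after its values were seen, supplied most of it at 81.4, 106 and 110.3 against 138 and 114.5 CPM.

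All 16 fibroblast markers were negative with a median of -0.70, and 7 were lower at an unadjusted p under 0.05, where 7.87% of tested genes were. Apod, a lipocalin, was the 1 that fell, from 36.8, 38.8 and 26.0 CPM to 16.3 and 12.4 CPM (log2 -1.24 ± 0.22, adjusted p 0.0496). The growth factor receptor gene Pdgfra, which defines fibroblasts, was at 30.7, 28.0 and 17.6 against 9.29 and 12.96 CPM (adjusted p 0.14). Summed fibroblast levels overlapped, at 1360 to 3060 CPM in the papillomas and 838 to 2421 CPM in the carcinomas. All 11 mast cell and basophil markers were negative with a median of -0.77, none passed, and the sums were 108 to 198 against 89.6 to 112 CPM. Sox10, a transcription factor of melanocytes and Schwann cells, fell from 1.46, 2.43 and 2.41 CPM to 0.433 and 0.447 CPM (log2 -2.25 ± 0.34, adjusted p 0.0339), and all 9 melanocyte markers were negative, with sums of 33.98 to 60.7 against 7.92 to 31.5 CPM.

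Markers of macrophages, neutrophils and dendritic cells did not separate the stages. Their medians were -0.07, -0.09 and -0.23, none of their 18, 14 and 15 tested members passed, and the summed levels of the stages overlapped. In lists with the largest medians, single papillomas stood apart. Of 11 adipocyte markers none passed in edgeR, 2 passed as lower in DESeq2, and the median was -3.96. At an unadjusted p under 0.05 by edgeR, 8 were lower and 1 higher, where 7.87% and 7.75% of tested genes were. The log2 difference was positive for 2 of the 11, and the sums overlapped at 1017 to 3439 against 3199 to 3432 CPM. KO papilloma replicate 1 held the most of several fat genes. Adipoq was at 21.6, 2.77 and 0 CPM in the papillomas and 0.0289 and 0.372 CPM in the carcinomas, and KO papilloma replicate 3 was thus as low as the carcinomas. Hair follicle markers had a median of -3.55, again with none past the test and with sums of 341 to 1252 against 218 to 344 CPM. Of all marker lists, 1 member of 1 list, the skeletal muscle gene Tnnc2, was at 0 in all 5 libraries.

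**Figure D4:**
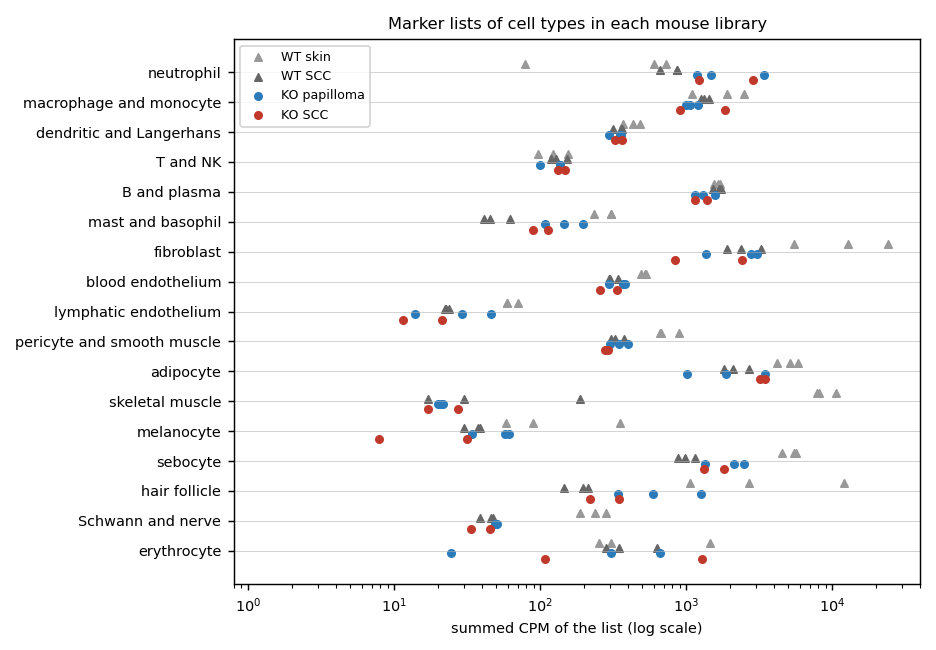
Summed CPM on a log axis of 17 cell type marker lists in each mouse library, with circles for KO papilloma (blue) and KO SCC (red) and triangles for WT skin and WT SCC. The 2 KO stages overlap for most lists, while WT skin stands above all tumours for skeletal muscle and fibroblast markers.

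Since DUSP1 acts on MAP kinases, their targets were also listed. Egr3, an immediate early transcription factor, fell from 39.9, 37.4 and 47.7 CPM to 11.6 and 14.7 CPM (log2 -1.66 ± 0.27, adjusted p 0.0366), and was the 1 of 24 immediate early and AP-1 genes that passed. Its relatives Egr1 and Egr2 were at 49.5, 94.3 and 99.0 against 43.4 and 26.9 CPM and at 16.7, 15.9 and 22.8 against 5.48 and 12.2 CPM (adjusted p 0.136 and 0.172). The carcinomas were lower for all 3 genes, but the list went both ways. Maff, a small basic leucine zipper factor, was at 28.6, 21.1 and 24.98 against 43.0 and 39.6 CPM (adjusted p 0.11), and the list median was -0.25. Of 25 genes of ERK output and MAP kinase feedback none passed, with a median of 0.09. Dusp4, a nuclear phosphatase of the same family as DUSP1, was at 5.26, 4.72 and 3.01 against 11.1 and 9.81 CPM (adjusted p 0.0874), and Dusp16, which acts on JNK, at 37.2, 33.8 and 28.0 against 21.8 and 18.03 CPM (adjusted p 0.126). Of 16 genes of DUSP1 and its kinases none passed, and the JNK gene Mapk8 was at 18.01, 22.3 and 13.9 against 28.6 and 22.4 CPM (adjusted p 0.28).

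Genes tied to invasion did not pass the test. Of 27 tested genes of metalloproteinases, the plasminogen system and their inhibitors, none passed and none was at an unadjusted p under 0.05 in either direction, by edgeR, and none passed in DESeq2. Serpinb2, which inhibits plasminogen activators, was kept in the list of kallikreins and serpins and is not among these 27; it was higher at an unadjusted p of 0.000312. Mmp13, a collagenase, was at 57.4, 27.9 and 12.6 against 44.9 and 66.0 CPM, and Mmp14, which is anchored in the membrane, at 112, 132 and 129 against 64.8 and 105 CPM (adjusted p 0.597 and 0.446). Mmp13, named for its role outside the rule, overlapped between the stages. Of 19 genes of epithelial-mesenchymal transition none passed, 14 were negative and the median was -0.29. Vim, the mesenchymal filament protein, was at 466, 337 and 266 against 159 and 229 CPM (adjusted p 0.2), in the same direction as the fibroblast markers. Collagens had a median of -0.40 over 19 genes and matrix glycoproteins of -0.46 over 21, with none past the test.

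Among epithelial regulators and secreted factors, single genes came near the threshold. The lineage factor Gata3 was at 17.8, 17.9 and 33.6 against 6.93 and 8.20 CPM (adjusted p 0.052), and Sox2, known from squamous tumours and not from resting epidermis, at 19.2, 26.1 and 37.2 against 61.3 and 52.7 CPM (adjusted p 0.14). Klk5, the protease that starts shedding of the outer layer, was at 117, 53.1 and 74.4 against 16.6 and 21.4 CPM (adjusted p 0.052). Its inhibitor Spink5 was at 1256, 2105 and 1422 against 2776 and 5088 CPM (adjusted p 0.139), the opposite direction. Klk5 and Spink5 thus each had stages that did not overlap, and neither passed. Serpinb2, a plasminogen activator inhibitor, was at 284, 246 and 189 against 673 and 491 CPM (adjusted p 0.0677). The mucosal keratin Krt13, a known marker of progression in mouse papillomas, was at 3340, 8076 and 9546 against 15390 and 14980 CPM (adjusted p 0.373), where KO papilloma replicate 1 stood far below the others.

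The interleukin 1 receptor antagonist Il1rn was at 211, 323 and 363 against 645.5 and 527 CPM (adjusted p 0.14), and Il18 at 49.2, 58.1 and 42.1 against 28.9 and 17.04 CPM (adjusted p 0.144). None of the 15 genes of the interleukin 1 family passed. Of 20 antioxidant genes under NRF2, none passed, 16 were positive and the median was 0.39. Gstm1, a glutathione transferase, was at 57.0, 79.3 and 92.0 against 123 and 198 CPM (adjusted p 0.0869). The carcinomas lay above all papillomas in 12 of the 20, where 16.1% of tested genes did. In the TGF-beta list of 25 genes none passed, with the latent binding protein gene Ltbp2 at 17.8, 14.8 and 12.1 against 6.67 and 5.79 CPM (adjusted p 0.0543) and the target Id1 at 246, 181 and 210.0 against 395.5 and 371 CPM (adjusted p 0.0769).

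**Figure D5:**
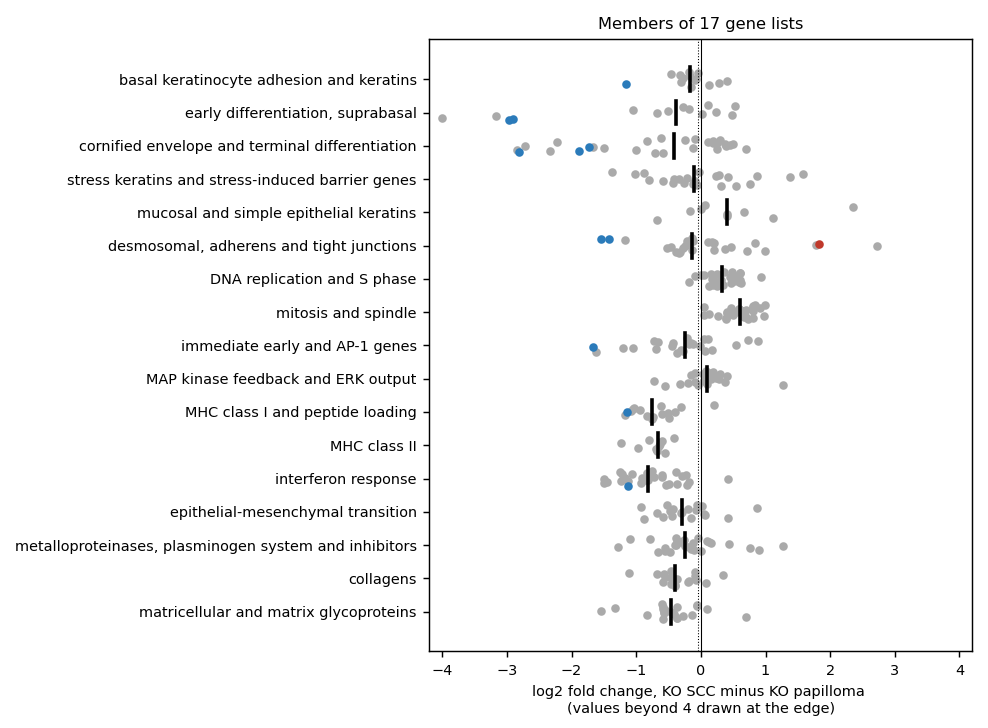
Log2 fold changes between KO SCC and KO papilloma of the tested members of 17 lists, with blue and red for members that passed the test as lower and higher, grey for the rest and black bars for list medians. The dotted line is the median of all tested genes, -0.05. Members of the mitosis list all lie above 0 and those of MHC class II all below it, with few or none past the test.

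Levels in the WT libraries place some of these genes, as a description, since they share the libraries compared above and differ in genotype label too. Krt1 was at 1076 ± 530.2 CPM in WT skin and 399 ± 52.3 CPM in WT SCC (SD, n = 3 each), so KO papilloma held more than either and KO SCC about as much as WT SCC. Krt10 was at 975 ± 76.0 CPM in WT SCC, above both KO SCC libraries. Cldn8 was at 12.1 ± 3.53 CPM in WT skin and 176 ± 13.2 CPM in WT SCC, close to KO SCC. Emp1 and Ly6c1 differed from Cldn8 in this, and these 3 genes do not stand for the others called higher. Emp1 was at 330.5 ± 28.8 CPM in WT skin and 284 ± 10.9 CPM in WT SCC, levels like those of the papillomas, and Ly6c1 at 246 ± 45.6 and 77.3 ± 16.1 CPM, with WT SCC the lowest group.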

How the data were processed

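The authors deposited raw counts for each gene, whole numbers that were not normalized. Illumina's stranded mRNA kit was used, per the labels' protocols, and HISAT2, StringTie and DESeq with the build mm10, per the submitters' processing notes. Versions, the counting rule and the strand setting are not given in the sources that were used, so counts of overlapping genes and near-identical copies are uncertain. Features without a name (1456 of 55988; 0.176 to 0.239% of counts in the 5 libraries) were left out. The 11 mouse libraries were fitted in 4 groups with edgeR 4.0.16 (R 4.3.3): filterByExpr, TMM, quasi-likelihood test, two-sided, Benjamini-Hochberg adjustment, threshold 0.05. CPM uses TMM-scaled library sizes; fold values and differences are fitted, as KO SCC minus KO papilloma. Steps were tested on simulated data. Chi-square per degree of freedom between libraries of a stage was 76.8 to 118, so none was taken to be a library deposited again; this does not show separate animals.

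The rule named Dusp1, the 15 largest rises and falls among called, non-overlapping genes of average log2 CPM at least 2, up to 6 members of each of 52 lists by p, and up to 3 predicted genes per direction; the text gives part of these. Members and lists were chosen with earlier results of these data known. Lists were described and not tested. Alternatives included DESeq2 1.42.0, where adjusted p-values given as NA (6098 genes) stayed NA. Gene positions are from GENCODE M21 on GRCm38. Some results are not reported here.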

Additional observations from a re-analysis of the deposited data

How the results depend on the processing

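With 64 genes called (11 higher, 53 lower), the count was 611 without a filter on low counts (210, 401), 101 at an average log2 CPM of at least 1 (19, 82), 240 with presence of Y chromosome counts as covariate (99, 141), 941 in DESeq2 (417, 524), and 0 against a minimum fold of 1.5 in edgeR (0, 0; 941 genes at an unadjusted p under 0.05). RLE size factors gave 46, all among the 64. The 5 KO libraries alone gave 56 (6 higher), of which only 30 were among the 64. In that fit 16 of the 39 called genes named in the text lost their call. Chosen after seeing the data, the 5 libraries alone with a robust spread gave 101 (19, 82), and the fit without WT skin 291 (121, 170). Leaving out each library gave 0 to 84 calls (0 to 14 higher, 0 to 70 lower). With the replicate number as a block, 1 gene was called (0 higher, 1 lower); deviations of libraries with the same number in their titles correlated at -0.05 and 0.13, and no label ties a number to a shared animal or batch, so they were not taken to pair. The column names number the carcinomas 2 and 3, and by those numbers the values were -0.13 and -0.16. With 2 carcinomas, their deviations mirror each other, so these values are not independent. Of 39 called genes named, all kept their direction in all 15 alternatives. Krt14 reversed to -0.03 with the block, -0.13 with the Y covariate and -0.02 without KO papilloma replicate 2, with 0.40 without replicate 1 as the highest value. The cause of these shifts was not tested. Values near 3 counts per library are limited by depth.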

Other observations

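Some genes were high in 1 library. At 50 CPM or more and at least 10-fold above each other KO library, KO SCC replicate 2 had 3 genes and the other 4 libraries none. Ltf, which encodes the iron-binding protein lactoferrin, was at 944 CPM there and at 0.157 to 2.14 CPM elsewhere, and Ppbp, a chemokine of platelets, at 106 CPM against 0.0786 to 3.23 CPM. The third was Eif2s3y on the Y chromosome. Gapdh, often used as a reference gene, was at 393, 259 and 365 CPM in the papillomas and 107 and 28.3 CPM in the carcinomas (adjusted p 0.307 by edgeR), levels that near-identical pseudogenes make uncertain, while Ldha, of the same pathway, was at 2707, 2375 and 2638 against 4852 and 3096 CPM (adjusted p 0.211).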
